A study of Mus musculus with 32 samples.

Results

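The genes described here are 34 markers of the dividing cell, 23 that act in G2 and mitosis (G2/M) and 11 that act in S phase, taken by symbol from a table of 39011 genes. All 34 were in the table, each on 1 line. RNA had been profiled from the subventricular zone, a neurogenic zone of the mouse forebrain, at postnatal day 21 by the sample labels, whereas the series text calls the animals adult. The libraries were 28 from 1 cell each (S1 to S28) and 4 from pools of 10 cells each (P1 to P4). The labels gave all 32 the same tissue and age and named no genotype, strain, treatment, sort or animal, so no p-value was made: the 28 cells count as a single sample, and the 4 pools had no matching group.

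A cell copies its DNA in S phase and parts the copies in mitosis. Minichromosome maintenance proteins (Mcm2 to Mcm7) form the helicase that opens the replication fork, Pcna clamps the polymerase to DNA, and Tyms, Rrm1 and Rrm2 make deoxynucleotides. Cyclins A and B with Cdk1 drive entry into mitosis, and the anaphase-promoting complex with Cdc20 and Ube2c ends it. In the postnatal subventricular zone, stem cells divide rarely, whereas transit-amplifying cells and part of the neuroblasts divide often.

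Values are FPKM, fragments scaled to transcript length and to the number of mapped fragments, which can be set between genes since they are per length. Found means a value of 1 FPKM or more. Single cells had 2107 to 10184 genes found, with a median of 4992, and pools had 10493 to 12897. Depth could be estimated in 20 libraries, not including S21, where FPKM of 1 on 2000 bases stood for about 12.4 to 41.8 fragments. Cells S18 to S22 shared many RNAs at low, near-constant shares. Counts are therefore also given with a limit of 2%: within S18 to S22, and likewise within S23 to S28, a value that is less than 2% of the highest there for its gene was set to 0. An exact 0 can be a failed estimate, so such genes are described as listed at 0.

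Promoters of G2/M genes often carry the cell cycle homology region, a short element bound by the DREAM and MuvB-FOXM1 complexes, near CCAAT boxes bound by NF-Y, whereas S phase promoters often carry E2F motifs. Promoter sequences from RefSeq (GRCm38.p6), from 250 bases before to 50 after the start, matched 30 of the 34 genes; Ccna2, Aurkb, Tpx2 and Mcm4 were not matched. Shown first are the 150 bases before the start for 4 G2/M genes that were highest in cell S21, since they show the element in place. Capitals mark TTTGAA and CCAAT on either strand (TTCAAA and ATTGG when reversed).
Cdc20 (chr4:118437344-118437493, minus strand): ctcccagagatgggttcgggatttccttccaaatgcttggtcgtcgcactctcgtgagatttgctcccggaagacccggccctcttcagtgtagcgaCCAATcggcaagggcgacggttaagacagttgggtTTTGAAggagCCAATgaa
Ube2c (chr2:164769779-164769928, plus strand): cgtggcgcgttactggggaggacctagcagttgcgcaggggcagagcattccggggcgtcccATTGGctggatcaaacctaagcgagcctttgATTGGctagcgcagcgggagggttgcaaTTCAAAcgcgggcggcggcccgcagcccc
Top2a (chr11:99024190-99024339, minus strand): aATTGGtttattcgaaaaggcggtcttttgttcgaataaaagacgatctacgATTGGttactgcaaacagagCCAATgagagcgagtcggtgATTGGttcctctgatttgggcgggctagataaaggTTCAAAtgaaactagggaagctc
Hmgb2 (chr8:57511693-57511842, plus strand): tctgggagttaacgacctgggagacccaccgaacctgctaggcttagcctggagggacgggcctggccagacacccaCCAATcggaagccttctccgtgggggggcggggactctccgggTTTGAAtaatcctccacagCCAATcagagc
In these promoters TTTGAA or its reverse began 18, 29, 23 and 30 bases before the start. For contrast, the S phase gene Mcm6 is shown with TTTCGCGC or TTTGGCGC, both E2F motifs, and CCAAT in capitals; its first capital run holds 2 overlapping E2F matches, TTTGGCGC and GCGCGAAA, on opposite strands.
Mcm6 (chr1:128359706-128359855, minus strand): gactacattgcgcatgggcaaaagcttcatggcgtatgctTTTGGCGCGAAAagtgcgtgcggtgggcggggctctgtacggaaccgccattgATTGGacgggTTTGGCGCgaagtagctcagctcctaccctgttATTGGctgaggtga

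TTTGAA on either strand lay in the 300-base window of 15 of 20 G2/M genes (75%) and 1 of 10 S phase genes, Mcm2, against 20.2% of all 27025 genes with a promoter. TTTAAA, its own reverse and a second form of the element, lay in 7 of 20 and 2 of 10, against 14.9% of all genes. CCAAT lay in 18 of 20 and 8 of 10, against 41.1%, and the 15 G2/M genes with TTTGAA all had CCAAT too, against 8.97% of all genes with both. The E2F motifs lay in Mcm3, Mcm5, Mcm6 and Mcm7 of the S phase genes and in Cdk1 of the G2/M genes, against 0.929% of all genes. A match is a run of letters and not a shown binding site.

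**Figure D1:**
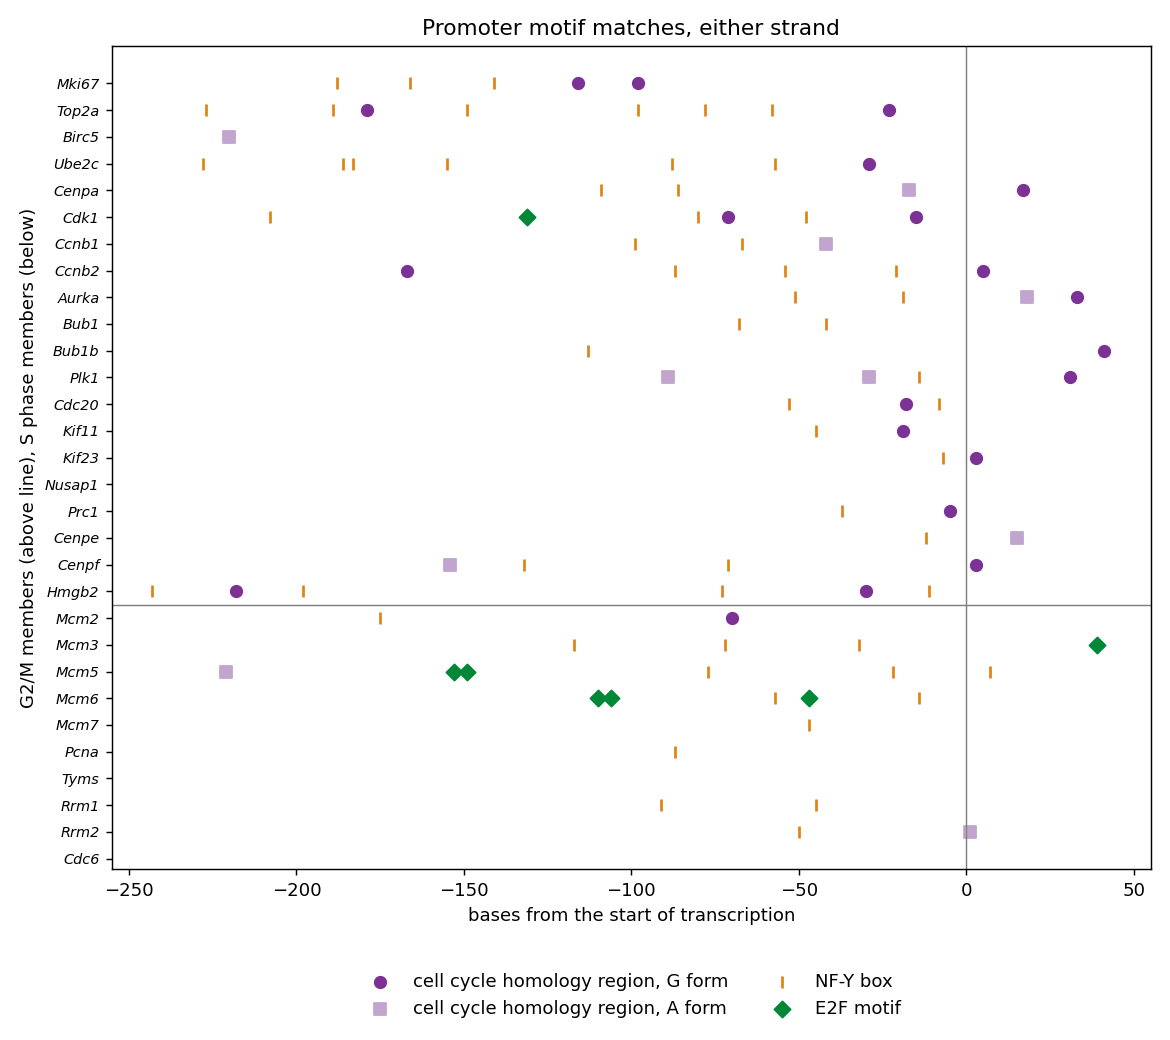
Matches to 4 promoter motifs by distance from the start of transcription (horizontal axis, in bases), 1 row per gene with a promoter, in the first window of each gene; the Mcm7 match lies in its second window and is not drawn. Purple circles, the TTTGAA form of the cell cycle homology region, are in 15 G2/M rows and 1 S phase row.

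G2/M RNA was concentrated in cell S21. It had 19 of the 23 G2/M genes found, whereas the other 27 cells had a median of 2 (range 1 to 15). S21 was singled out beforehand as the highest G2/M cell, so these values are a description. S21 had few genes found: its 2427 found genes, 12.2% of the 19853 genes found in any library, were the third fewest of the 28 cells.

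The most abundant G2/M gene in S21 was Birc5 (survivin, a subunit of the chromosomal passenger complex), at 4307 FPKM. Birc5 (chromosome 11, 117849251 to 117855743, GRCm38, plus strand) had a median of 0.485 FPKM over the 28 cells, and its next highest cell, S19, had 51.5. S21 therefore stood apart from all other cells for this gene. Cdc20 (chromosome 4, 118432901 to 118437352), which activates the anaphase-promoting complex, had 4067 FPKM in S21, 140 in S14, the next highest, and a median of 0.0206. Ube2c (chromosome 2, 164769898 to 164778822), the ubiquitin-conjugating enzyme of that complex, had 1549, with S14 next at 80.9. So both partners of the complex had their highest value in S21 and the next in S14.

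Centromere and spindle genes were high in the same cell. Cenpa (chromosome 5, 30666777 to 30674827), the histone H3 variant of the centromere, had 1473 FPKM in S21 and 18.6 in S19. Plk1 (chromosome 7, 122159437 to 122169875), a kinase of mitotic entry and exit, had 1100 and was next highest in S15, at 67.6. Top2a (chromosome 11, 98992943 to 99024189), which untangles sister chromatids, had 929 in S21 and 277 in S14. These 6 genes were the highest in S21. Prc1, which bundles microtubules of the spindle midzone, had 550, the midzone kinesin Kif23 had 326, and Tpx2, a spindle assembly factor, had 216. The checkpoint kinases Bub1 and Bub1b had 258 and 96.7, the kinetochore kinesin Cenpe 40.2, and Kif11, the kinesin that keeps spindle poles apart, 18.8. Mki67, which coats mitotic chromosomes and is the usual marker of division, had 72.1 in S21, 22.02 in S8 and 16.1 in S25.

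Cyclins split between cells. Ccna2 (cyclin A) and Ccnb2 (a B cyclin) had 759 and 718 FPKM in S21. Ccnb1, the other B cyclin (chromosome 13, 100778650 to 100786570), had 26.9 in S21 and 683 in S14. Cdk1, the kinase they activate (chromosome 10, 69336635 to 69352938), had 3.95 in S21, 533 in S19 and 71.5 in S20. The S21 value of Cdk1 is under 2% of that in S19, so with the 2% limit S21 had 18 G2/M genes. Aurka, a spindle pole kinase, was at 0.0655 in S21, and Aurkb, Nusap1 and Cenpf were listed at 0 there. Aurkb was found in no cell, Nusap1 and Cenpf in 1 cell each (S2 at 3.67 and S6 at 2.65), and Aurka in S14 alone, so 3 of these 4 genes were at most at 3.67 FPKM anywhere among the cells.

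Of the 22 G2/M genes found in at least 1 cell, 17 had their highest value in S21, as did 2.2% of all genes found in a cell; the first count was fixed in part by the choice of S21. For 11 of the 17, S21 held over 90% of the FPKM summed over the 28 cells, and the share ranged from 27.5% for Hmgb2 to 97.9% for Kif23. Hmgb2, a chromatin protein that is high in dividing cells, had the lowest share, and many other cells had it. It was found in 23 of 28 cells (82.1%, exact Clopper-Pearson 95% interval 63.1% to 93.9%), and in 17 with the 2% limit. The interval is for the count as deposited and takes the cells as independent. Hmgb2 in the 23 cells was at 1.53 to 314 FPKM, with a median of 8.07. After S21 its highest values were 232 in S25, 129 in S8 and 109 in S27.

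**Figure D2:**
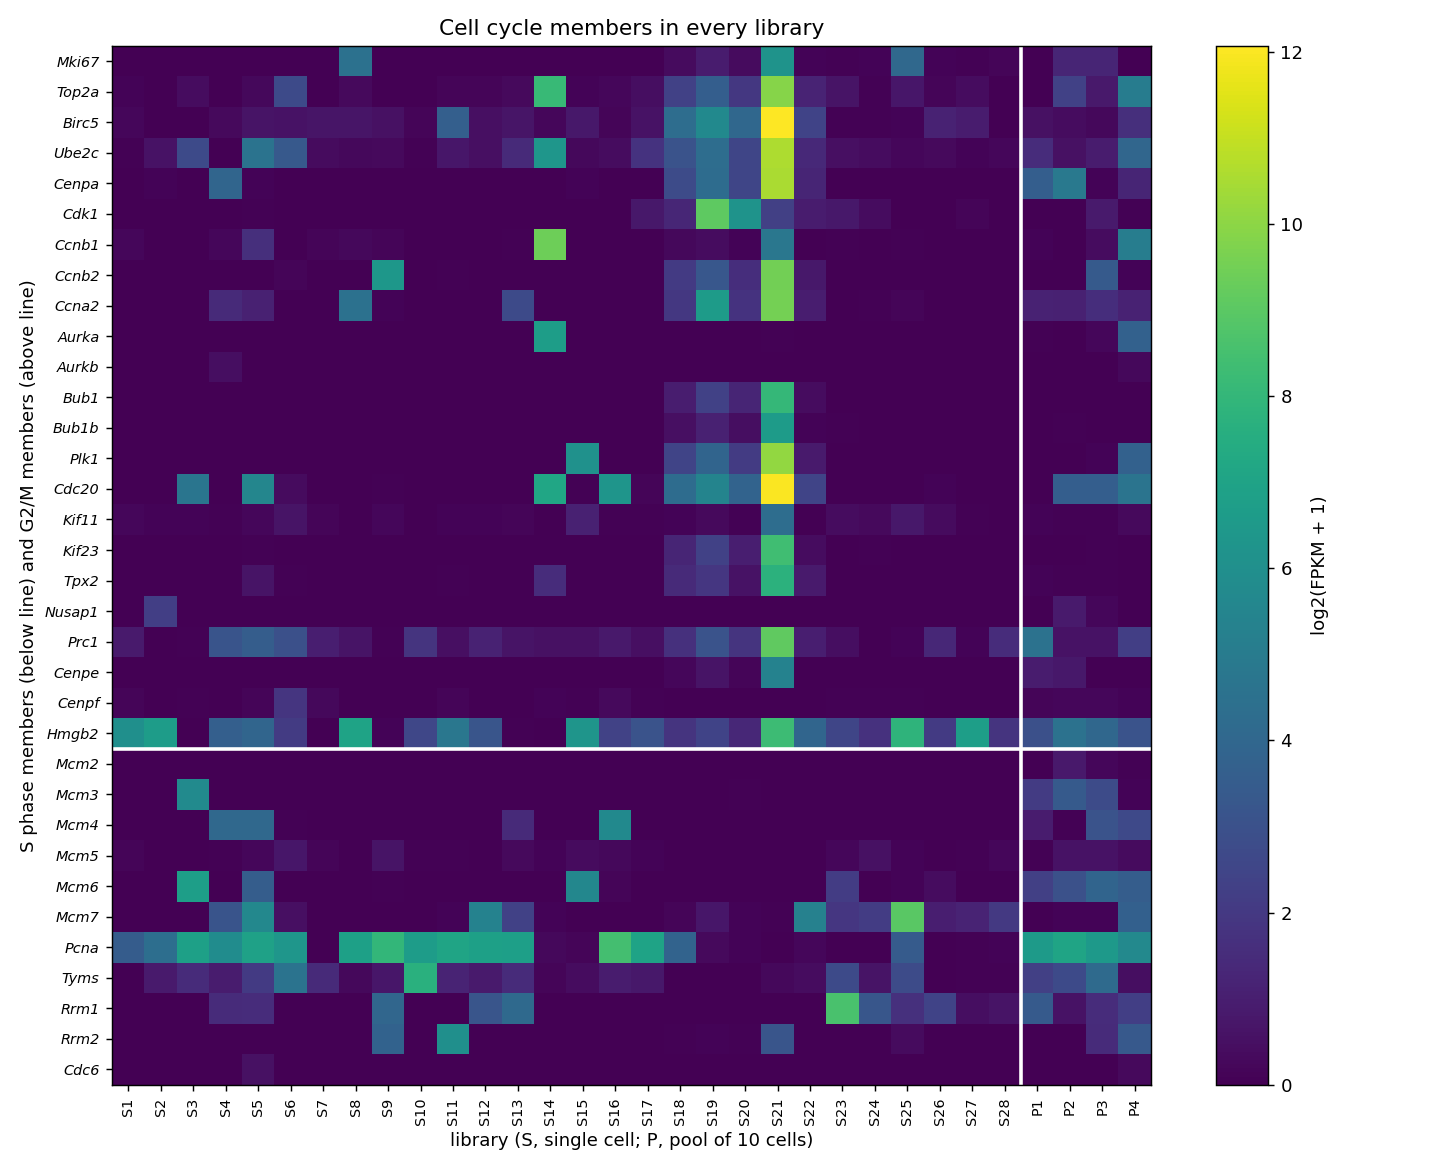
Colour shows log2(FPKM + 1) for the 34 genes (rows; G2/M above the white line, S phase below) in the 32 libraries (columns; pools right of the white line). The S21 column is bright over most G2/M rows, up to 4307 FPKM for Birc5, and dark over the S phase rows apart from Rrm2.

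The libraries S18, S19, S20 and S22 had the same G2/M genes at near-constant low shares of the S21 value. S18, S19, S20 and S22 had 13, 15, 13 and 7 G2/M genes found as deposited, and 0, 2, 1 and 1 with the 2% limit. Among 12 G2/M genes at 100 FPKM or more in S21 and under 5% of that in the other 4 libraries, the median share of the S21 value was 0.433% in S18, 1.24% in S19, 0.316% in S20 and 0.110% in S22. In S19 the 12 shares lay between 1.06% and 1.54%. The 364 other genes chosen in the same way had medians of 0.427%, 1.21%, 0.325% and 0.117%. G2/M genes and other genes thus had like shares within each library. The median of cells S1 to S17 was at a median of 0.00209% of the S21 value over the 12 G2/M genes, and of 0.0604% over the 364 others, whose upper quartile was 1.46%.

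Exceptions to the constant share were few. Ccna2 in S19 had 96.8 FPKM, or 12.8% of its S21 value, and with Cdk1 it made up the 2 genes S19 kept under the limit. S20 kept Cdk1 and S22 kept Hmgb2, at 14.4 FPKM. S19 had 12 and S20 had 11 of 12 markers of a microglia list as deposited, among them C1qa at 7387 and 10923 FPKM. S18 had 12 as well, with C1qa at 15642.5 FPKM, but had Cdk1 at 1.48 and kept 0 G2/M genes under the limit. Whether Cdk1 goes with these markers was not tested. Cdk1 was found in none of cells S1 to S17, and neither were Bub1, Bub1b, Kif23, Cenpe and Aurkb.

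**Figure D3:**
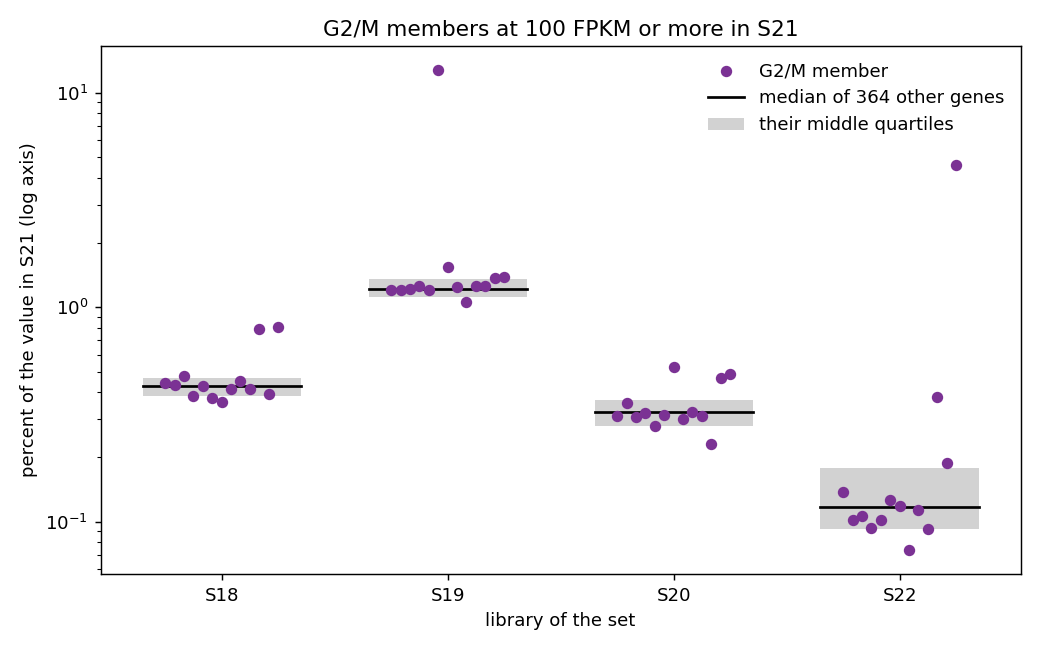
Each purple point is a G2/M gene at 100 FPKM or more in S21, placed by its value in S18, S19, S20 or S22 as a percent of that in S21 (log axis). Black lines and grey bands give the median and the middle quartiles of 364 other genes. Most points lie near the lines, and those farthest off are Ccna2 in S19 at 12.8% and Hmgb2 in S22 at 4.58%. Smaller departures include Tpx2 in S22 at 0.381%, and Hmgb2 and Tpx2 in S18 at 0.811% and 0.794%.

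S14 differed from S21 in the G2/M genes it had. It had 6 of the 22 found in a cell (27.3%), not far from the 19.8% of all genes found in it, and S5 had 6 too. They were Ccnb1 at 683 FPKM, Top2a at 277, Cdc20 at 140, Aurka (chromosome 2, 172356190 to 172370535) at 103, Ube2c at 80.9 and Tpx2 at 1.89. S14 lies outside both library sets. Birc5, at 0.167 FPKM, and Hmgb2, at 0.0320, were below the limit for found, and Plk1, Cenpa and Cdk1 were listed at 0. S14 and S21 thus both had Top2a, Cdc20, Ube2c, Ccnb1 and Tpx2 found and differed in Aurka and Ccnb1, which were higher in S14, and in Birc5, Cenpa and Plk1, which were higher in S21. With 1 cell of each kind, no error can be given for these differences.

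The remaining cells had isolated G2/M genes. Outside S18 to S22 no cell had more than 6, the number in S14 and in S5, the cell with the most genes found of all. S5 had Cdc20 at 46.3, Ube2c at 22.9 and Prc1 at 10.8 FPKM, beside 4067, 1549 and 550 in S21. S9 had Ccnb2 at 82.4, S15 had Plk1 at 67.6 and S16 had Cdc20 at 78.4, each beside at most 2 other G2/M genes. S8 had Mki67 at 22.02 and Ccna2 at 22.01 FPKM beside Hmgb2. Prc1 was the most widespread after Hmgb2, in 13 cells (9 with the 2% limit), but at no more than 10.8 FPKM outside S21.

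S phase genes did not follow the G2/M genes. S21 had 1 of 11 found, Rrm2 at 7.94 FPKM, which is 12.5% of the 8 found in any library, near the 12.2% of all genes found in S21. The other 10, Pcna among them, were at 0.179 FPKM or lower, and none of the 11 had its highest value there. S14 had 0 of 11. Over the 28 cells the median number of S phase genes found was 1.5, with a highest of 6, in S5. Mcm2, Mcm5 and Cdc6, which loads the helicase, were found in no cell. This allows a share of up to 10.7% of cells at 3 counts of 28, or up to 12.3% by the exact interval. All intervals and floors given cover counting error only and take the 28 cells as independent.

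The 8 S phase genes found had their highest values in 6 different cells. Mcm6 and Mcm3 were highest in S3, at 109 and 53.4 FPKM, and S3 also had Pcna at 115. Pcna and Mcm4 were highest in S16, at 358 and 52.3. Mcm7 was highest in S25 at 502, Rrm1 in S23 at 395, Tyms in S10 at 200 and Rrm2 in S11 at 62.8. No cell had more than 3 of the 6 Mcm genes found, and in S5, which had 3, they were Mcm7 at 49.5, Mcm4 at 16.1 and Mcm6 at 10.6. S25 was the only cell of the 28 with Mki67, Hmgb2 and an Mcm gene together. Its Mki67 and Mcm7 values were the highest of cells S23 to S28, so the 2% limit did not remove them.

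Pcna was the most widespread S phase gene. It was found in 16 of 28 cells (57.1%, exact Clopper-Pearson 95% interval 37.2% to 75.5%) and in all 4 pools. In 14 of cells S1 to S17 it was found, at 10.5 to 358 FPKM with a median of 115, a breadth that 9.45% of all genes reached. In the 11 cells S18 to S28 it was found only in S18 at 13.2 and S25 at 10.1. Its processed pseudogene Pcna-ps2 followed it: 15 cells had Pcna-ps2 and all 15 had Pcna, at a pseudogene level of 15.99% to 52.4% of Pcna (median 41.1%). Reads shared between the gene and its copy cannot be told apart here. Cells S1 to S17 also had more genes found (median 5940, against 2427 in S18 to S22 and 4236 in S23 to S28), and the part of that in the Pcna counts was not tested.

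**Figure D4:**
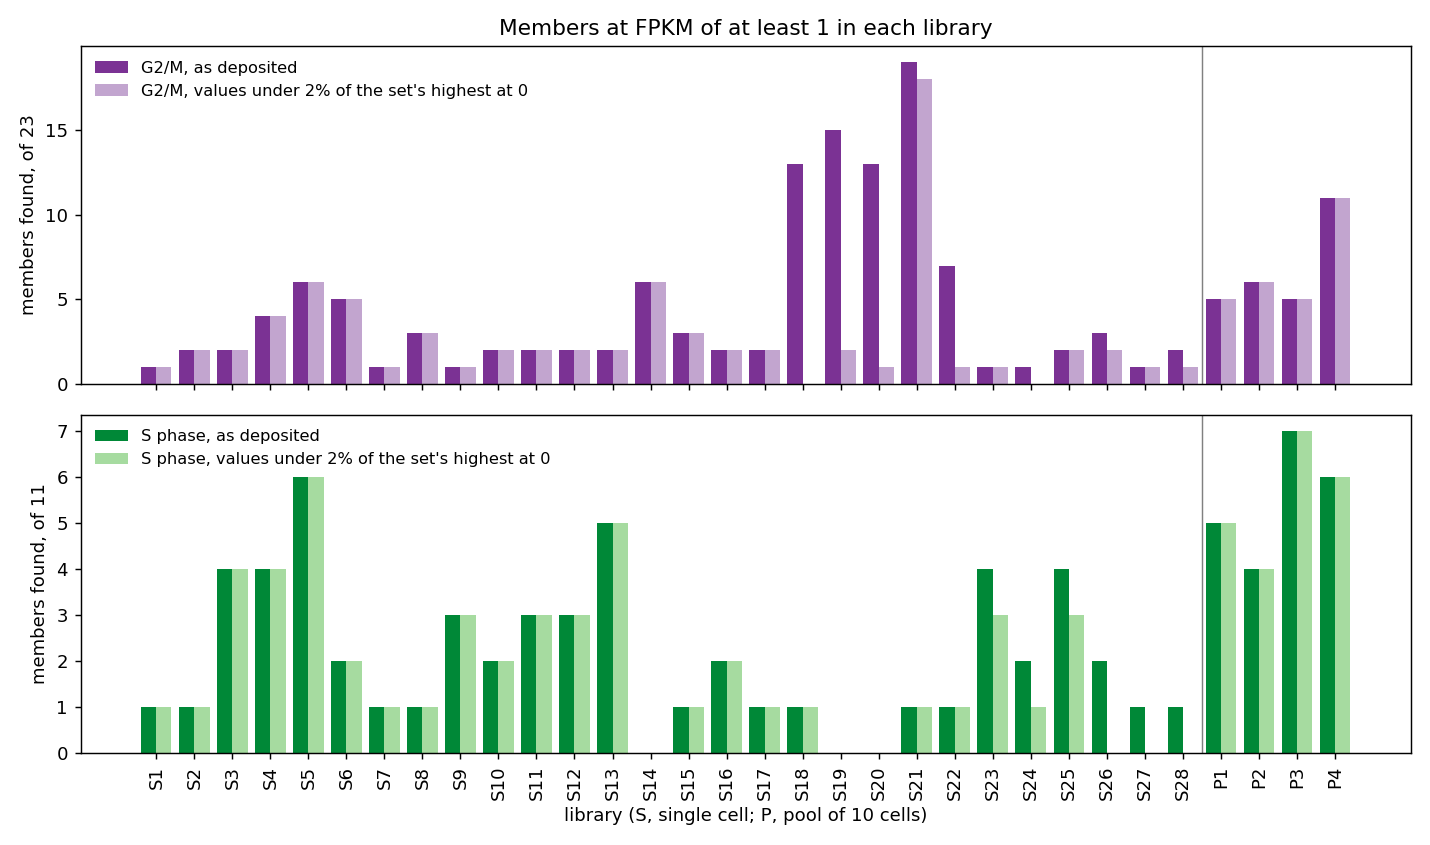
Bars give the number of G2/M genes (upper panel, of 23) and S phase genes (lower panel, of 11) at FPKM of at least 1 in each library, as deposited (dark) and with the 2% limit (light). S21 keeps 18 G2/M genes under the limit while S18, S19, S20 and S22 go to at most 2, and S phase bars are highest in P3 (7) and in P4 and S5 (6 each).

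Wider lists of cell cycle genes split in the same way in S21. Of 67 other mitosis genes in the table, 52 were found in a library and 34 of these in S21 (65.4%, against 12.2% of all genes), all 34 also under the 2% limit, and the other 27 cells had a median of 8 (highest 20, in S19). Of 51 found in any cell, 27 had their highest value in S21, as did 2.2% of all genes found in a cell. Since S21 was chosen as the highest G2/M cell, these counts rest in part on that choice. The histone variant H2afz had 9043 FPKM, the chromosome-arm kinesin Kif22 1863, Fam64a 1407, Racgap1, a partner of Kif23 at the midzone, 1349, and Cdca8, which binds Birc5 in the passenger complex, 975. The mitotic kinase Pbk had 851, the spindle checkpoint protein Mad2l1 796, Tacc3, which steadies spindle microtubules, 669, the condensin subunit Ncapd2 592 and the kinesin Kifc1 518. H2afz was found in all 28 cells and Racgap1 in 27 (24 and 23 with the 2% limit), so these 2 genes are not limited to S21.

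Replication genes did not have such a count in S21. Of 39 replication and G1/S genes found in any library, 3 were found in S21 (7.69%) and 2 under the 2% limit, against 12.2% of all genes. The other 27 cells had a median of 9, and a median of 5061 genes found against 2427 in S21. Dbf4, the activating partner of the replication kinase Cdc7, had 180 FPKM in S21 and was the only gene of this list highest there. Of 22 regulators found in any library, 3 were found in S21 (13.6%), near the share of all genes. Foxm1, the transcription factor that drives G2/M genes, had 233 FPKM in S21, against 2.91 in S19, and its value in S14 was listed at 0. Ube2s, which extends ubiquitin chains on targets of the anaphase-promoting complex, had 1569 in S21 and 3821 in S28, its highest cell, and was found in 20 cells (12 with the 2% limit). Fzr1, the other activator of that complex, had 37.4 and was removed by the 2% limit, since S19 had 2435.

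Markers of cell types in S21 pointed to more than 1 list as deposited. All 12 microglial markers were found, with a mean log2(FPKM + 1) of 4.78, and 9 of 13 for neuroblasts, with a mean of 4.31. With the 2% limit 2 microglial markers remained, among them C1qa at 1911 FPKM, and 7 neuroblast markers, with means of 1.62 and 4.04. The neuroblast genes were led by Stmn2 at 767, Dlx6os1 at 622 and Dlx1 at 514. Dcx was at 1.54, and the transit-amplifying markers Egfr, Dll1 and Dll3 were listed at 0. No endothelial, oligodendrocyte, oligodendrocyte precursor, pericyte, ependymal or choroid plexus marker was found in S21. Of the astrocyte and stem cell list Sox9 was found, at 27.9 FPKM, and of the mature neuron list Syt1, at 4.68 FPKM. Both remained with the 2% limit. Of the transit-amplifying list Btg2 was found, at 5.11 FPKM, and the 2% limit removed it. S14 had 10 of 11 markers of astrocytes and stem cells, 6 of 10 oligodendrocyte markers and 5 of 13 neuroblast markers. No doublet caller was run, and the part of more than 1 cell in a library was not tested.

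Pools of 10 cells had little G2/M RNA beside the mean of the single cells. The ratio used is log2((mean FPKM of the 4 pools + 1)/(mean FPKM of the 28 cells + 1)), which understates changes of low genes, and a gene was called lower or higher past 2-fold. Of the 23 G2/M genes 17 were lower and 0 higher, against 13.9% lower and 12.9% higher among all genes found in a library. The median G2/M ratio was -2.15, against 0.064 over all genes. Taken 1 pool at a time the medians were -3.04, -3.18, -3.39 and -2.24 (SD 0.502), all below the median for the mean of the 4 pools. Without S21, 5 were lower and 2 higher, against 13.7% and 12.5% of all genes, and the median was -0.25, so the difference rested on that cell. In bulk libraries, fewer cells of a type and less RNA per cell cannot be told apart.

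Birc5 had the lowest ratio, -6.48, with 0.466, 0.306, 0.211 and 2.13 FPKM in P1 to P4 against a mean of 158 in the cells; without S21 it was -1.51. Bub1 was listed at 0 in all 4 pools. Of the 19 G2/M genes found in S21, 7 were found in no pool, a count that rests in part on the choice of S21. Of all genes found in a library, 86.2% were found in at least 1 pool, and the share among all genes found in S21 was not computed. Cdk1, whose high cells were S19 and S20, stayed at -4.27 without S21, and no pool reached FPKM of 1. Cenpa turned from -2.30 to 2.08 without S21, with 11.3, 28.1, 0.0810 and 1.39 FPKM in P1 to P4. Prc1 turned likewise from -1.52 to 1.42, through P1 at 22.5 FPKM, and the other 3 pools had 0.516 to 3.76.

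Of the 19853 genes found in any library, P1 to P4 had 12460, 12897, 10493 and 11988 found. P4 had the most G2/M genes of the pools, 11, against 5, 6 and 5 in P1 to P3, but not the most genes of all. Its leading genes were Ccnb1 at 34.2 FPKM, Top2a at 32.6, Cdc20 at 24.1, Ube2c at 14.9, Plk1 at 12.6 and Aurka at 12.4. Except for Plk1, these were the leading genes of S14, at 5.01% (Ccnb1) to 18.4% (Ube2c) of the S14 values. Aurka was at most 0.158 FPKM in the other 3 pools and Ccnb1 at most 0.334. P4 had the most markers of several lists. It had 11 of 11 for astrocytes and stem cells, against 5, 6 and 7 in P1 to P3. For transit-amplifying cells it had 5 of 8 against 2 in each. For oligodendrocytes it had 10 of 10 against 9, 8 and 4, and for neuroblasts 4 of 13 against 3, 3 and 2. P4 did not have the most for endothelial cells (6 of 12 against 4, 12 and 12) or microglia (6 of 12 against 11, 12 and 9). Nor did it for ependymal cells (8 of 11), pericytes (3 of 7), oligodendrocyte precursors (3 of 6) or mature neurons (1 of 6). For the choroid plexus P1 and P4 both had 6 of 6. The part of any of these cell types in the G2/M RNA of P4 was not tested.

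**Figure D5:**
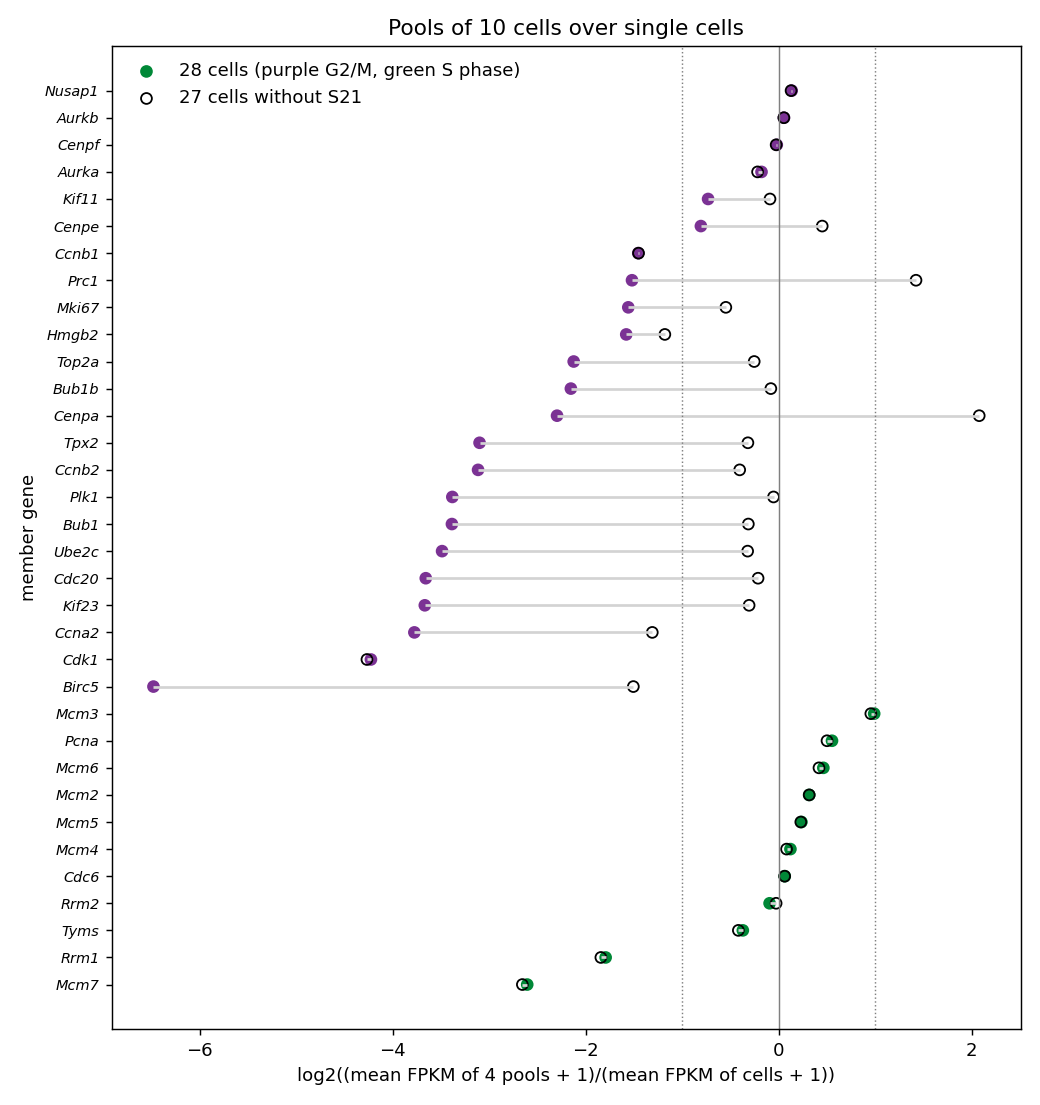
Filled points give log2 of pools over the 28 cells for each gene (purple G2/M, green S phase), open points the same without S21, and dotted lines mark 2-fold. Most purple points lie left of -1, and many of these move to near 0 without S21. However, 5 stay left of -1 (Cdk1, Birc5, Ccnb1, Ccna2 and Hmgb2) and 2 pass to the right of 1 (Cenpa and Prc1). Cdk1, Ccnb1 and the green points hardly move.

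S phase genes had a different picture in the pools. Their median ratio was 0.12 (SD over the 4 pools 0.389), close to the 0.064 of all genes, with 2 of 11 lower and 0 higher past 2-fold. The 2 were Mcm7 at -2.61 and Rrm1 at -1.79, and each had its highest cell in S23 to S28; against cells S1 to S17 alone their ratios were -0.80 and 0.49. Pools had 5, 4, 7 and 6 of 11 found in P1 to P4, and all 8 genes found in a cell were found in at least 1 pool, as were 86.2% of all genes. Pcna, at 93.5, 132, 89.3 and 50.5 FPKM, and Mcm6, at 3.89, 6.90, 13.7 and 10.7, were found in all 4 pools, as were 35.4% of all genes. Mcm3 was found in P1, P2 and P3 at 3.35, 9.85 and 5.82, and of the cells only in S3. Of the G2/M genes, 10 of 23 were found in no pool, and Hmgb2, at 6.83, 22.2, 15.2 and 7.65, and Ccna2, at 1.25, 1.14, 2.01 and 1.19, were found in all 4.

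Among the wider lists, 20 of 52 mitosis genes found in a library were lower in the pools past 2-fold and 2 were higher; without S21 these counts were 7 and 4. The shares of all genes were 13.9% lower and 12.9% higher, and 13.7% and 12.5% without S21. Of 39 replication and G1/S genes 10 were lower and 5 higher, and of 22 regulators 5 were lower and 1 higher. Without S21 the replication counts were 9 and 5 and the regulator counts 4 and 1, so in these lists S21 made little difference.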

How the data were processed

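RNA was measured by sequencing in 28 single-cell libraries and 4 libraries of 10 cells. TopHat 1.41, Cufflinks 2.02 and the build mm9 are named in the submitters' processing notes, and FPKM values per gene were deposited in a single table. Its loci match GRCm38: 96.0% of 39011 lines carry a GENCODE M21 ID, 99.7% of which overlap the GRCm38 gene. Whether counting used strand is not given in the sources used here. Another gene overlaps 13 of the 34 genes (Tnnc2 at Ube2c, Elovl1 at Cdc20, Exosc9 at Ccna2, Cops6, Ap4m1 and microRNAs at Mcm7, among others) and 4 have a pseudogene named after them, so their values are uncertain.

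Values were used as deposited with a pseudocount of 1, in Python 3.11.15 with pandas 2.3.3 and scipy 1.17.1. Depth was estimated from 2342 single-exon genes (800 bp or longer, less 200 bp for the fragment), as the most frequent value in a library, and kept where at least 30 genes shared it. The ratio was checked on deposited values shuffled within each gene, with chosen genes raised or lowered in the pools. The 2% limit was checked on a small made-up example. These checks show only that the 2 formulas were computed as written, and did not cover the counts, shares, depth estimate or motif search. Members, lists, library sets and the 2% limit were chosen with earlier results of these data known. All 34 genes are accounted for, with the top genes of each wider list. Cdt1 and Pclaf were not analysed here. The 4 G2/M promoters printed were those of the highest genes in S21 with a whole TTTGAA in the last 100 bases before the start of the first window (in Prc1 it crosses that start), and Mcm6 was the most widely found S phase gene with an E2F motif there; the E2F rule also read the first window, and both rules were made after the values were seen. Alternatives changed the limit for found, the pseudocount, the scaling, the cells and the pools.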

Additional observations from a re-analysis of the deposited data

Results flagged for a closer look

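Over the 4 pools, 25 values were tested on the log2(FPKM + 1) or count scale. For 7 of them, the gap of 1 pool to the nearest other pool was a larger part of the range than Dixon's 95% limit allows. Chance alone gives about 1 in 20 only for independent, normally distributed values. These values came from the same 4 pools, and the number of G2/M genes found was built partly from genes also tested singly. The 7 of 25 therefore cannot be set against 1 in 20 and are a description. P4 was the distant pool for Ccnb1 (34.2 FPKM), Aurka (12.4), Plk1 (12.6), Mcm7 (11.8) and the number of G2/M genes found (11). P3 was the distant pool for Ccnb2 (9.81 FPKM) and Ccna2 (2.01).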

How the results depend on the processing

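The 19 G2/M genes of S21 were 18 or 19, and the 17 highest in it 17, under both rescalings and the 2% limit; the first was also 18 or 19 with limits of 1% and 5% and with 0.1 or 5 FPKM as the value for found. The median number of S phase genes per cell was 3 at a limit for found of 0.1, against 1.5, and 1 to 2 otherwise.

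The G2/M ratio of pools over cells (-2.15) depended on S21. It was -0.25 without S21, -0.23 without S18, S20 and S21 and -0.14 against S1 to S17 alone. By means of log2 values, in which a single high cell weighs less, it turned to 0.053, with all genes at 0.95, or -0.90 relative to them. It was -0.96 with a pseudocount of 10 and -3.90 under upper quartile scaling. Rescaling to the same sum moved all genes to 0.24 and G2/M to -2.65. With 1 pool left out it lay between -2.82 (without P4) and -1.92. The S phase ratio was 0.82 by means of log2 values, or -0.13 relative to all genes, and lay between -0.023 and 0.33 with 1 pool left out. No paired analysis was possible because the numbers in the titles of cells and pools only count libraries, and no test between cells and pools was made. Depth limits what can be said of genes below FPKM of 1, and of S21, whose depth could not be estimated.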
